A study of Caenorhabditis elegans with 12 samples.

Results

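The genes described here carry the names under which *C. elegans* sperm genes were found or grouped. They were every named gene in the count files called *spe*, *fer*, *ssp*, *ssq* or *nspd* with a number, plus the sperm phosphatases *gsp-3* and *gsp-4*. There were 54 such genes among 46546 named genes, namely 23 *spe*, 1 *fer*, 12 *ssp*, 4 *ssq*, 12 *nspd* and 2 *gsp* genes, and 53 of them had at least 1 count in a library. Wild-type hermaphrodites (N2 Bristol) were grown as synchronized cultures from the L1 stage on *E. coli* OP50 on NGM plates at 20 °C. The food held 0 or 20 µM cadmium chloride (Cd), and whole worms were collected after 27 h at L3 or after 47 h at L4. Each of the 4 groups (unexposed L3, exposed L3, unexposed L4 and exposed L4) had 3 libraries of poly-A RNA, 12 in all. Every library is RNA of a whole population of animals, so fewer sperm cells and less RNA per sperm cell cannot be told apart.

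In hermaphrodites the germ line makes sperm during the L4 stage, before it switches to oocytes. Spermatocytes pack the major sperm protein (MSP) into fibrous bodies attached to membranous organelles, and the sperm later become motile when they are activated. The *spe* (spermatogenesis defective) and *fer* (fertilization defective) genes were found through mutants with faulty sperm. The *ssp* and *ssq* genes are named as sperm-specific families, and *nspd* stands for nematode-specific peptide family, group D.

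Library totals lay between 23899991 and 44766672 counts. The counts of *mtl-1*, the gene of a metal-binding metallothionein, checked the exposure labels. They were 118 to 211 in unexposed and 6796 to 9478 in exposed L3 libraries, and 46 to 127 in unexposed and 500 to 999 in exposed L4 libraries. Libraries of a group differed by more than counting noise. The closest pair, exposed L4 replicates 2 and 3, had a chi-square per degree of freedom of 3.33, against 13.1 to 99.2 in the other pairs. Males also make sperm, so male markers were measured. The summed level of the 11 male markers was 11 to 16.2 CPM (counts relative to the library total after TMM scaling) over the L3 libraries and 3.96 to 7.63 CPM over the L4 libraries. The male neuron genes *cwp-1*, *cwp-2* and *cwp-3* had at most 3 counts in any library, *lov-1* at most 8 and *pkd-2* at most 10. The others had more, namely 33 to 277 for *mab-3*, 19 to 136 for *ram-5* and 19 to 59 for *cwp-4*. Counts were 7 to 58 for *try-5*, 11 to 56 for *cil-7* and 13 to 48 for *plg-1*. Of 6 male markers tested, 4 were called lower and 0 higher in unexposed L4 than L3 worms. In exposed worms 4 were called lower and 2 higher (*plg-1* and *ram-5*). Over all genes tested, 27.9% were called lower and 28.5% higher in unexposed worms, and 22.6% and 25.5% in exposed worms.

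The genes shared features that their names do not state. By the coordinates in the files (WBcel235), 22 of the 54 genes (40.7%) lay on chromosome I and 20 (37.0%) on chromosome IV, whereas 12.4% and 23.7% of all genes with counts did. None lay on the X chromosome, which held 14.9% of all genes with counts. All 12 *nspd* genes were single exons of 136 to 439 bp, and the *ssp* genes had 381 to 528 exonic bp in 1 to 3 exons. The *spe* genes ranged from the 276 exonic bp of *spe-29* to the 3889 bp of *spe-15*, and *fer-1* had 6245 bp in 21 exons. Of the 28 *ssp*, *ssq* and *nspd* genes, 15 lay within 20 kb of another gene of the set. How often sets of other genes lie that close was not measured, so that count only describes these genes. Of the same 28 genes, 6 (21.4%) lay within 20 kb of an *msp* gene, which encodes MSP. That distance to an *msp* gene was met by 0 of 24 *spe* and *fer* genes and by 1.09% of 28513 other genes with counts. On chromosome IV, *ssp-9* (4994324 to 4994739), *ssq-2* (4996142 to 4997559), *ssp-11* (4999434 to 4999853) and *ssq-4* (5016479 to 5017741) formed a group. A further group on chromosome IV held *nspd-2* (9844014 to 9844344), *ssp-10* (9850648 to 9851070) and *ssq-1* (9852550 to 9853609).

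The comparison of the stages asked how far these genes followed the onset of sperm formation. Most had few counts at L3, and nearly all were higher at L4. All 54 genes together held 0.00747% of the counts in unexposed L3 libraries and 0.263% in unexposed L4 libraries. Their summed level was 71.0 to 72.6 CPM in the 3 unexposed L3 libraries and 2710 to 2990 CPM in the 3 unexposed L4 libraries. At L3, 5 genes had 0 counts in all 6 libraries and 32 had at most 10 counts in each. At L4, 51 genes had at least 20 counts in each of 6 libraries. For 50 of the 54 genes the lowest of the L4 libraries lay above the highest of the L3 libraries, as it did for 22.5% of all genes with counts.

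**Figure D1:**
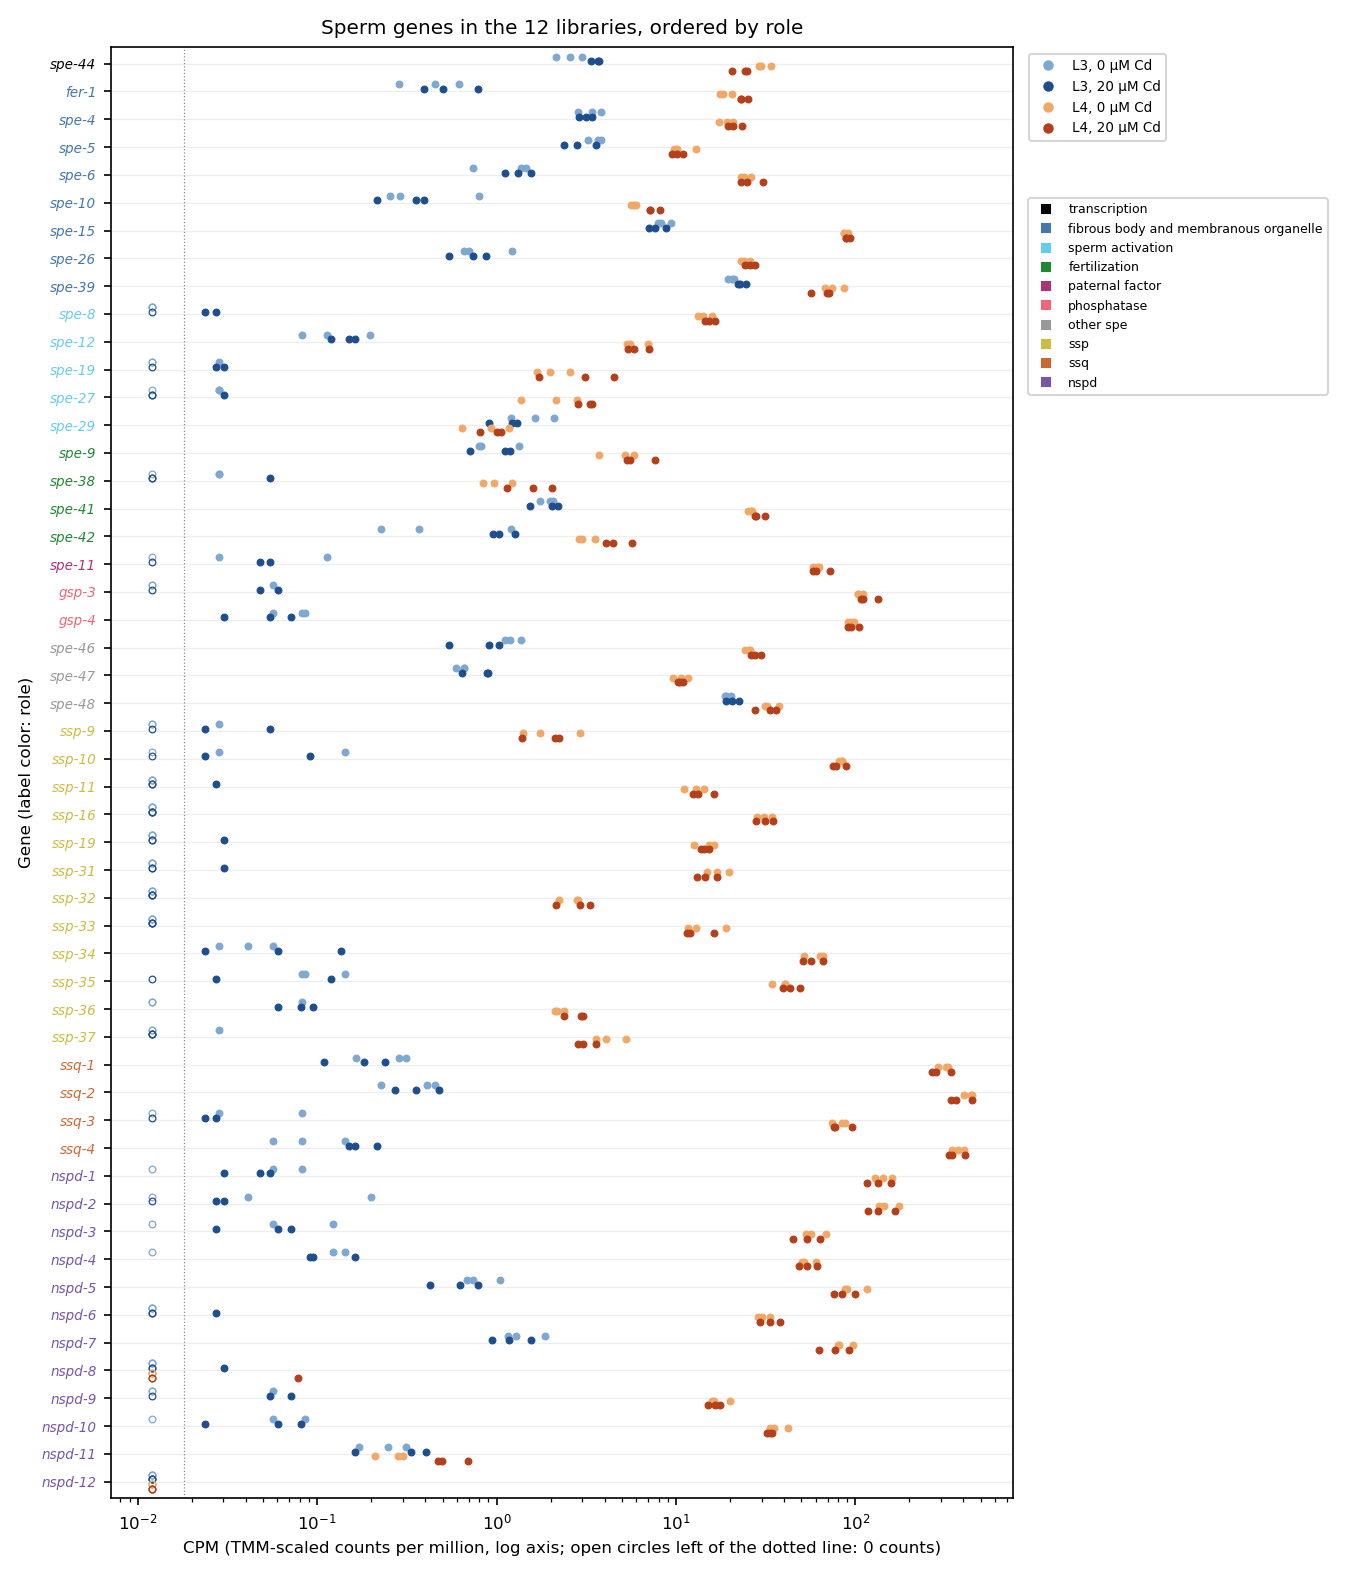
TMM-scaled CPM of 52 of the genes (rows, ordered by role) in the 12 libraries, on a log axis; each dot is 1 library, colored by stage and Cd, and open circles left of the dotted line are libraries with 0 counts. For 48 of these genes the L4 dots all sit to the right of the L3 dots, and *spe-29*, *nspd-8*, *nspd-11* and *nspd-12* are the exceptions.

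With edgeR's quasi-likelihood test, 49 of the 51 genes tested were higher in unexposed L4 than in unexposed L3 worms and 0 were lower, at an adjusted p of at most 0.05 and a change of at least 2-fold. Over all 16487 genes tested in that comparison, 28.5% were called higher and 27.9% lower. In exposed worms 49 of 52 genes were called higher and 0 lower, where 25.5% of 16650 genes were called higher and 22.6% lower. The median log2 difference of the genes tested was 8.20 in unexposed and 8.14 in exposed worms, against -0.07 and -0.01 over all genes tested. A fitted difference against a group at 0 depends on the prior count. With 9 such genes set to the bound that 3 counts over the group give, the unexposed median was 7.17, and with 5 such genes the exposed median was 7.07. A gene enters the test largely through its L4 counts, so these shares describe the genes that could be tested. The stage comparisons share no libraries with each other, but each shares its libraries with the comparisons of Cd below.

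The regulator came on clearly and from a measurable base. *spe-44* (chromosome IV, 12452066 to 12454215, minus strand, 6 exons) encodes a transcription factor that drives many sperm genes. It had 52, 106 and 90 counts in unexposed L3 libraries and 1273, 1200 and 965 counts in unexposed L4 libraries. Its log2 difference was 3.53 (SE 0.158, adjusted p = 4.42e-07, edgeR quasi-likelihood test), and the groups did not overlap.

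The 9 genes for the fibrous bodies and membranous organelles were all called higher at L4, but from very different starting points. *spe-15*, which encodes a myosin VI, rose from 228, 290 and 278 counts to 3665, 3224 and 2875 counts, a log2 difference of 3.32 (SE 0.0963). *fer-1*, a ferlin needed for membranous organelles to fuse with the cell surface, rose from 15, 16 and 10 counts to 872, 626 and 604 counts. Its level per exonic length was 0.0723 ± 0.0266 RPKM (CPM per kilobase of exon, SD, n = 3) at L3 and 3.00 ± 0.244 RPKM at L4. The genes with the smallest rise in this group were *spe-5* and *spe-39*. *spe-5*, a subunit of the vacuolar proton pump, rose by a log2 difference of 1.57 (SE 0.178, adjusted p = 7.19e-05, edgeR), from 79, 129 and 134 to 555, 347 and 337 counts. *spe-39*, a trafficking gene that also acts outside sperm, had 513, 686 and 724 counts at L3 and 2874, 3098 and 2451 counts at L4, a log2 difference of 1.85 (SE 0.108). Further members rose by log2 differences of 2.47 for the presenilin gene *spe-4*, 3.61 for the palmitoyltransferase gene *spe-10*, 4.28 for the casein kinase gene *spe-6* and 4.75 for the kelch-repeat gene *spe-26*.

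Of the 5 genes that act in sperm activation, 4 were called higher at L4 and 1 was not. *spe-8*, a non-receptor tyrosine kinase, had 0 counts in the unexposed L3 libraries and 600, 565 and 442 counts in the unexposed L4 libraries, at least 455-fold higher. *spe-12* went from 2, 7 and 4 to 299, 191 and 183 counts, *spe-19* from 0, 1 and 0 to 110, 60 and 66 counts, and *spe-27* from 0, 1 and 1 to 120, 76 and 45 counts. *spe-29*, a small membrane protein gene of the same pathway, went the other way. It had 51, 58 and 42 counts in unexposed L3 libraries and 50, 23 and 31 counts in unexposed L4 libraries. Its level was 1.65 ± 0.451 CPM (SD, n = 3) at L3 and 0.917 ± 0.264 CPM at L4, with no overlap between the groups. The log2 difference was -0.86 (SE 0.32, adjusted p = 0.0346, edgeR), which passed the adjusted p but not the 2-fold minimum. Without unexposed L3 replicate 3 the difference was -1.05 and without unexposed L4 replicate 1 it was -1.07, both past the minimum. In the other 4 fits that leave out a library it was -0.87 to -0.66 with adjusted p-values of 0.0767 to 0.115 (edgeR), and DESeq2 gave -0.74 with an adjusted p of 0.0778. In exposed worms the *spe-29* difference was -0.34 (SE 0.255, adjusted p = 0.245, edgeR).

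The 5 fertilization genes, whose products sit at the sperm surface, were all called higher at L4. The log2 differences in unexposed worms were 2.26 for *spe-9*, 5.32 for *spe-38*, 3.71 for the calcium channel gene *spe-41* and 2.31 for *spe-42*. *spe-41* had the highest L4 level among them, 9.74 ± 0.235 RPKM (SD, n = 3), and *spe-42* the lowest, 1.35 ± 0.144 RPKM. *spe-42* had 9, 8 and 42 counts in unexposed L3 libraries, so that 1 of the 3 L3 libraries stood well above the other two. *spe-11*, which supplies a paternal factor to the embryo, had 0, 1 and 4 counts at L3 and 2664, 2168 and 1923 counts at L4.

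The phosphatases and most genes of the named families were close to 0 at L3 and abundant at L4. *gsp-3* (chromosome I, 4709262 to 4710712) and *gsp-4* (chromosome I, 3838237 to 3839899) encode sperm forms of protein phosphatase 1. *gsp-3* had 0, 0 and 2 counts in unexposed L3 and 4376, 3680 and 3664 counts in unexposed L4 libraries, a ratio of 4980 with a 95% counting interval of 1380 to 41100. *gsp-4* had 2, 3 and 2 counts and then 4008, 3228 and 3246 counts, a ratio of 1270 (618 to 3170). All 12 *ssp* and all 4 *ssq* genes were called higher, with median log2 differences of 10.27 (8.77 with 6 *ssp* genes at their bound) and 10.64. *ssq-2*, the gene of the set with the most counts, went from 10, 8 and 16 to 18718, 14443 and 14760 counts, and *ssq-4* from 2, 5 and 2 to 15907, 12300 and 13442 counts. *ssp-16* had 0 counts in all 6 L3 libraries and 1465, 1009 and 1031 counts in unexposed L4 libraries, at least 993-fold higher. *gsp-3* and *gsp-4*, the *ssq* genes, *ssp-9* and *ssp-11*, and the *nspd* genes resemble each other within their families. How reads that match more than one copy were counted is not given in the sources used here, so the split between such copies is uncertain.

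Of the 12 *nspd* genes, 9 were called higher in both stage comparisons. *nspd-2* went from 1, 0 and 7 to 7500, 4828 and 4814 counts in unexposed worms and *nspd-1* from 2, 2 and 0 to 6878, 4598 and 4742 counts. *nspd-5* and *nspd-7* were the members with clear L3 counts, 18 to 37 and 41 to 45 in the unexposed L3 libraries. *nspd-12* had 0 counts in all 12 libraries and *nspd-8* had at most 3 counts in any library. *nspd-11* had 6, 6 and 11 counts in unexposed L3 and 9, 10 and 10 counts in unexposed L4 libraries, a ratio of 1.07 (95% counting interval 0.599 to 1.94). Of its 136 bp, 61.8% overlap an exon of *tep-1* on the same strand, so its reads cannot be told apart from those of *tep-1* over that stretch.

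Only *spe-29* and *spe-48* were tested in unexposed worms and not called higher. *spe-48* had 459, 713 and 657 counts in unexposed L3 and 1337, 1344 and 1067 counts in unexposed L4 libraries. Its log2 difference was 0.76 (SE 0.105, adjusted p = 0.000229, edgeR), below the 2-fold minimum, and 0.57 (SE 0.119, adjusted p = 0.00139, edgeR) in exposed worms. Its L3 level, 15.2 ± 0.655 RPKM (SD, n = 3), was the highest of the set at that stage, ahead of *spe-39* with 10.8 ± 0.446 RPKM. The other genes in this role group, *spe-46* and *spe-47*, rose by log2 differences of 4.32 and 4.02.

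At L4 the levels per exonic length spanned more than 2 orders of magnitude, with a wide spread within the families. Averaged over the 6 L4 libraries, *nspd-2* (439 RPKM) and *nspd-1* (407 RPKM) were at the top, followed by *ssq-1* (316 RPKM), *ssq-4* (315 RPKM) and *ssq-2* (309 RPKM). The ranges of *nspd-2*, 355 to 532 RPKM, and *nspd-1*, 337 to 469 RPKM, overlapped, and so did those of the 3 *ssq* genes, which lay between 261 and 354 RPKM. *nspd-5*, *nspd-7*, *ssp-10* and *nspd-3* followed with 265, 235, 193 and 171 RPKM. *gsp-3* averaged 100 RPKM, *gsp-4* 69.3 RPKM and *spe-11* 61.9 RPKM. The highest gene for the membranous organelles was *spe-39* with 37.5 RPKM, and *spe-44* stood at 16.6 RPKM. The fertilization gene *spe-42* averaged 1.69 RPKM. The lowest *ssp* gene, *ssp-9*, averaged 4.73 RPKM and the lowest *ssq* gene, *ssq-3*, 70.7 RPKM.

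**Figure D2:**
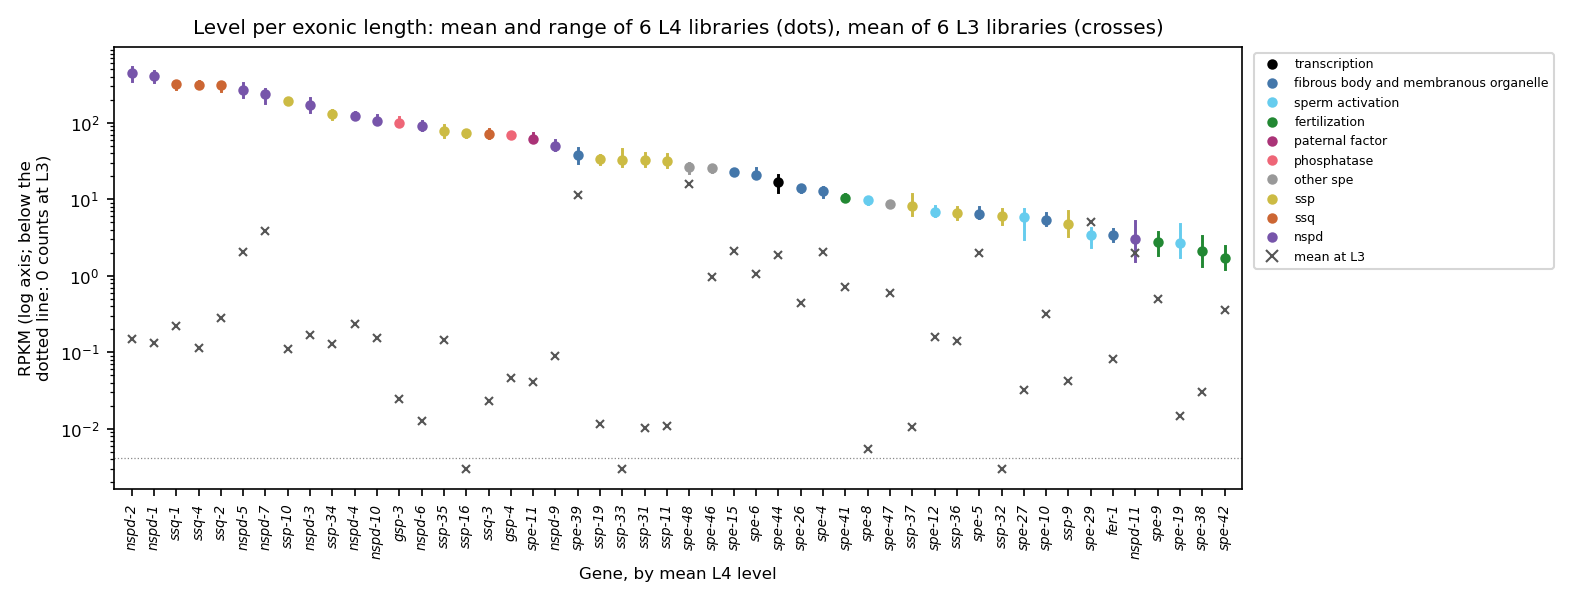
Level per exonic length in RPKM on a log axis for 50 of the genes above 1 RPKM at L4; dots give the mean and bars the lowest to highest of 6 L4 libraries, crosses the mean of 6 L3 libraries, and crosses below the dotted line genes with 0 counts at L3. The *nspd* and *ssq* genes hold the top places, up to 439 RPKM, *spe-42* is last with 1.69 RPKM, and the crosses lie closest to the dots for *spe-48*, *spe-29* and *nspd-11*.

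Most other genes of the sperm program also rose. Of 35 *msp* genes 31 could be tested and all 31 were called higher in unexposed L4 worms, with a median log2 difference of 11.13. A list of 23 other sperm genes had 19 called higher and 1 lower. Among these, the histone-like *spch-1* had 1 to 3 counts in every L3 library and 4930 to 6221 in every L4 library, and the Argonaute gene *alg-3* rose by a log2 difference of 5.33. *fog-3*, which acts earlier to choose the sperm fate, was the gene that fell, with a log2 difference of -2.84 (adjusted p = 9.58e-06, edgeR). Of 15 oocyte and eggshell genes 14 were called higher, so RNA of oocyte genes had also risen in the L4 libraries.

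The comparison of exposed with unexposed L3 worms asked whether 20 µM Cd altered these genes before most of them were on. Only 20 of the 54 genes had enough counts to be tested, and 0 were called in either direction, at a background of 3.63% of 15024 genes. At an unadjusted p of at most 0.05 there was 1 gene, *spe-44*, where 26% of all genes tested were that low. DESeq2's Wald test called 0, at a background of 5.36%. The median log2 difference was -0.02, against 0.01 over all genes. The groups did not overlap for 2 genes that were higher, *spe-44* and *spe-39*, and for 1 that was lower, *spe-46*, where 18% and 15.7% of all genes tested did so. For *spe-39* the log2 difference was 0.17 (95% interval -0.02 to 0.36) and for *spe-46* -0.58 (-1.24 to 0.07).

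*spe-44* had 2.14, 3.00 and 2.56 CPM in unexposed and 3.69, 3.36 and 3.73 CPM in exposed L3 libraries. All exposed libraries thus lay above all unexposed ones, by a log2 difference of 0.46 (SE 0.167, 95% interval 0.07 to 0.85), but the adjusted p was 0.137 with edgeR. For *spe-42*, 9, 8 and 42 counts without Cd stood against 53, 34 and 35 with Cd at L3, and the groups overlapped. The difference of 0.81 had an adjusted p of 0.375 with edgeR, and the 1 unexposed library with 42 counts lowered it. Without unexposed L3 replicate 3, *spe-42* was 1.88 higher on the log2 scale and was the 1 gene called (adjusted p = 0.00854, edgeR, the lowest of a range up to 0.694 over the fits that leave out a library). The 95% interval stayed within 2-fold in either direction for 12 of the 20 genes tested, among them *spe-4*, *spe-15*, *spe-39*, *spe-41* and *spe-48*. For the other 8 genes the interval reached past 2-fold, and for those not tested a change was not detectable at this depth.

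At L4, where most of the genes were abundant, exposed and unexposed worms were close. Of 52 genes tested 0 were called, at a background of 0.0432% of 16201 genes, and DESeq2's Wald test called 0 at a background of 1.29%. There were 7 genes at an unadjusted p of at most 0.05, where 26.8% of all genes tested were that low. The median log2 difference was 0.06, against 0.03 over all genes. All 54 genes together held 0.263% of the counts in unexposed and 0.27% in exposed libraries, and their summed levels, 2710 to 2990 CPM and 2520 to 3090 CPM, overlapped. The 95% interval of the difference lay within 2-fold in either direction for 47 of the 52 genes. The 5 others were *spe-19*, *spe-27*, *spe-38*, *spe-42* and *nspd-11*, most of them among the lowest genes of the set. The intervals were narrow for several abundant genes. Exposed over unexposed worms gave a ratio of 1.05 for *spe-15* (0.935 to 1.17), 1.05 for *gsp-4* (0.910 to 1.22), 0.987 for *ssp-10* (0.850 to 1.15) and 1.08 for *spe-11* (0.907 to 1.27).

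**Figure D3:**
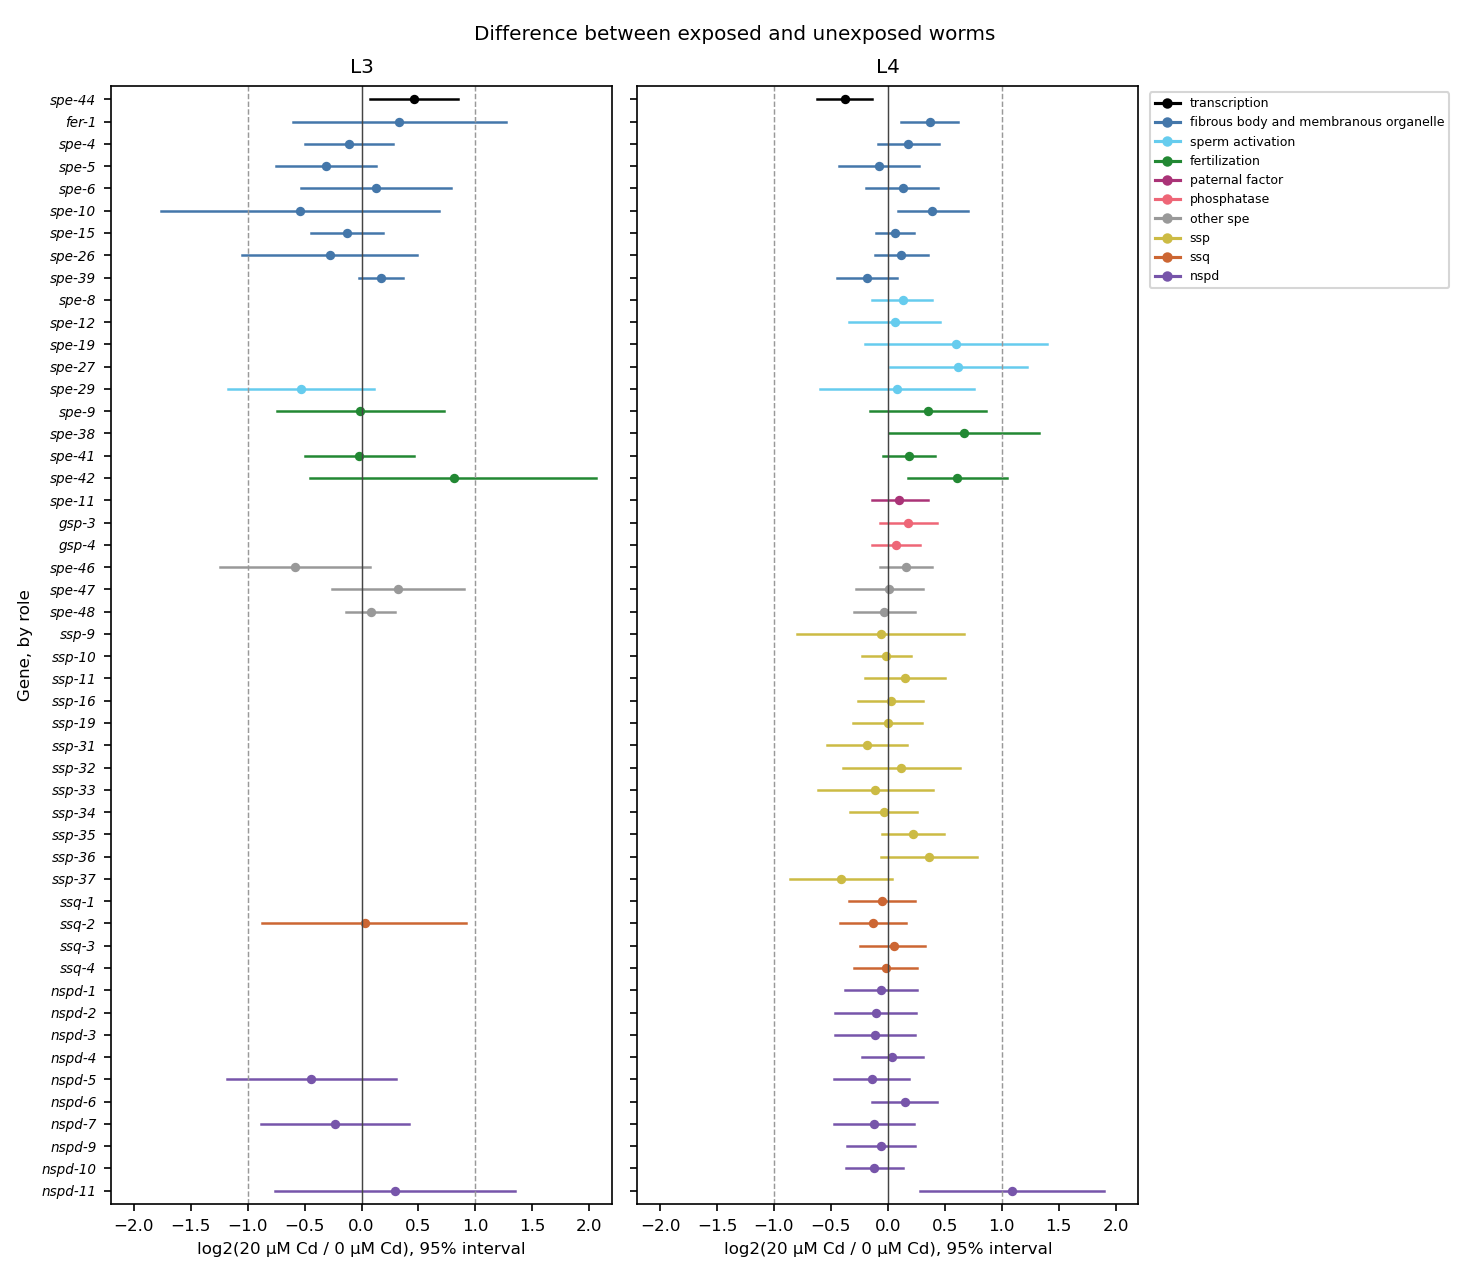
Log2 ratio of worms grown with 20 µM Cd to unexposed worms at L3 (left) and L4 (right) for 20 genes at L3 and 50 at L4, with the 95% interval; dashed lines mark a 2-fold difference. At L4 the intervals of 45 of these 50 genes lie between the dashed lines, and *spe-44* lies right of 0 at L3 (0.46) and left of 0 at L4 (-0.38).

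By role, the differences at L4 were small and not uniform in sign. All 5 activation genes and all 5 fertilization genes had positive estimates, with medians of 0.13 and 0.35, and 7 of the 9 genes for the membranous organelles did (median 0.12). Over the set 31 of 52 estimates were positive, and over all genes tested 8507 of 16201. The medians of the *ssp*, *ssq* and *nspd* genes were -0.01, -0.03 and -0.08. Exposed and unexposed L4 libraries did not overlap for 8 genes that were higher with Cd and 2 that were lower, where 18% and 18.8% of all genes tested did so. The 8 were *fer-1*, *spe-10*, *spe-27*, *spe-41*, *spe-42*, *spe-46*, *ssp-36* and *nspd-11*, and the 2 were *spe-44* and *ssp-37*. *fer-1* had 20.5, 17.6 and 18.2 CPM in unexposed and 25.2, 23.1 and 23.0 CPM in exposed L4 libraries. Its log2 difference was 0.37 (95% interval 0.12 to 0.62, adjusted p = 0.11, edgeR). *spe-42* had 3.52, 2.89 and 3.01 CPM in unexposed and 5.66, 4.43 and 4.08 CPM in exposed L4 libraries. Its difference of 0.61 (0.18 to 1.05) had an adjusted p of 0.114 with edgeR, 0.122 to 0.258 with edgeR when a library was left out, and 0.0726 with DESeq2. For *nspd-11*, 9, 10 and 10 counts without Cd stood against 23, 18 and 21 with Cd at L4, a difference of 1.09 (0.28 to 1.90, adjusted p = 0.121, edgeR), and shares most of its length with *tep-1*.

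*spe-44* was the gene with the lowest p of the set at L4, and its estimate was negative. It had 29.9, 33.7 and 29.1 CPM in unexposed and 20.6, 25 and 24.2 CPM in exposed L4 libraries. Every exposed library lay below every unexposed one, and the level per length was 19 ± 1.51 RPKM (SD, n = 3) without and 14.3 ± 1.46 RPKM with Cd. The log2 difference was -0.38 (SE 0.105, 95% interval -0.62 to -0.14). The adjusted p was 0.103 with edgeR, 0.116 to 0.226 with edgeR when a library was left out, and 0.0462 with DESeq2. None of these fits reached the 2-fold minimum.

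**Figure D4:**
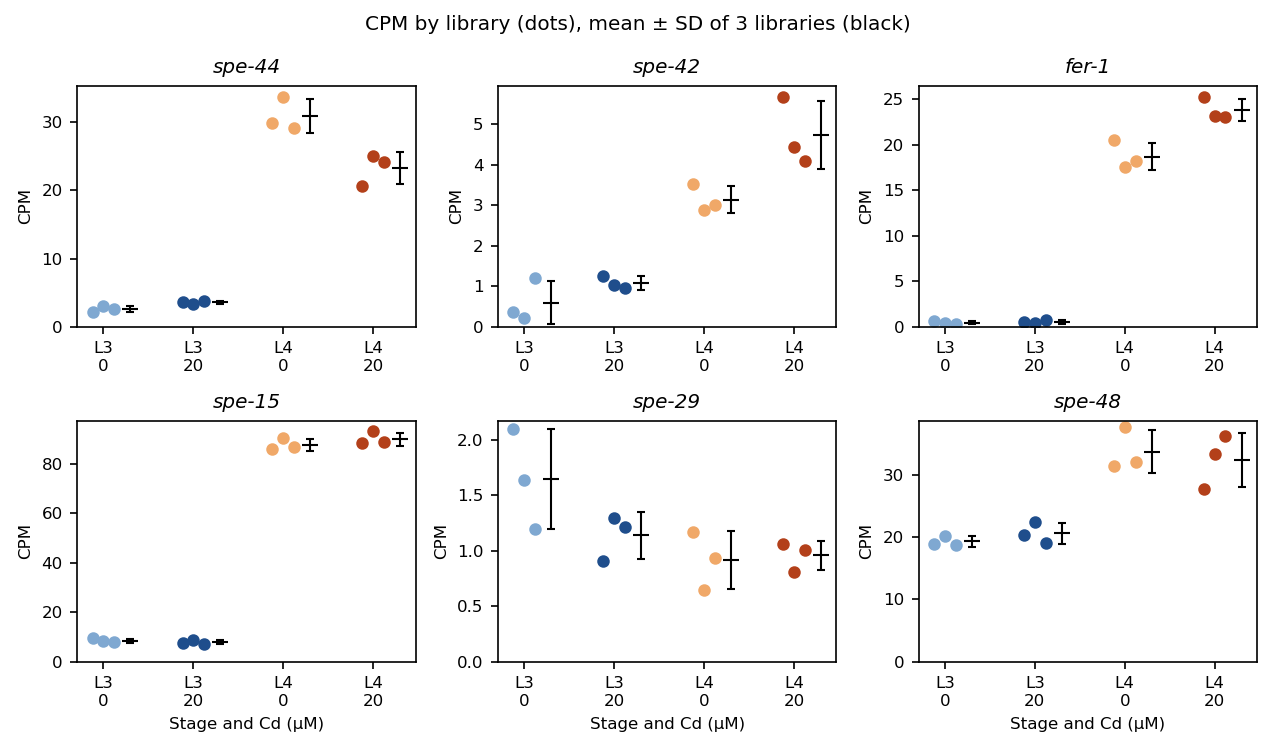
CPM of 6 genes in each library (colored dots) with the mean and SD of 3 libraries (black), by stage and Cd in µM, on axes that start at 0. The exposed dots of *spe-44* lie above the unexposed ones at L3 and below them at L4, and those of *spe-42* and *fer-1* above them at L4, though none of these differences was called, *spe-15* shows a narrow spread at L4, and *spe-29* and *spe-48* show little or no rise from L3 to L4.

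Whether the Cd effect differed between L3 and L4 was tested with an interaction term over the 12 libraries. Of 52 genes tested 0 were called with the 2-fold minimum, at a background of 6.23% of 17196 genes, and DESeq2's Wald test called 0 at one of 7.91%. At an unadjusted p of at most 0.05 there were 3 genes, against 29.9% of all genes tested. By the adjusted p alone there was 1, *spe-44*, where 11.6% of all genes tested passed. The Cd effect on *spe-44* was higher at L3 than at L4 by 0.85 on the log2 scale (SE 0.191, 95% interval 0.44 to 1.27, adjusted p = 0.0149, edgeR). DESeq2 gave 0.96 with an adjusted p of 0.000453. Leaving out each of the 12 libraries in turn gave 0.78 to 0.98 with adjusted p-values of 0.0163 to 0.0367. In the separate fits of the stage comparisons, the rise of *spe-44* from L3 to L4 was 3.53 in unexposed and 2.60 in exposed worms. *spe-46* had the next lowest p, with a difference of -0.73 (adjusted p = 0.0735, edgeR). For genes near 0 at L3 the test says little, as the SE of 356 for *ssp-33* shows. Leaving out unexposed L3 replicate 3 gave 1 call, *spe-42* (1.28, adjusted p = 0.0418, edgeR).

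The mitotic and early germ-line list and the oocyte and eggshell list differed in sign between the stages. Of 14 genes of the mitotic and early germ line 12 had positive estimates with Cd at L3 (median 0.15) and 1 at L4 (median -0.26). Of the oocyte and eggshell genes 9 of 13 had a positive estimate at L3 (median 0.11) and 0 of 15 at L4 (median -0.43). The summed level of that list was 26800 to 50900 CPM in unexposed and 19400 to 32400 CPM in exposed L4 libraries. Most of that sum came from the yolk protein genes *vit-2*, *vit-5* and *vit-6*, so it says little about the rest of the list. The yolk genes averaged 11500, 6280 and 13400 CPM in unexposed L4 worms, where the whole list averaged 38200 CPM. At an unadjusted p of at most 0.05 there were 4 of 14 and 3 of 13 genes at L3, where 26% of all genes tested were that low. At L4 there were 5 of 14 and 9 of 15, where 26.8% were. Over all genes tested, 7648 of 15024 had a positive estimate at L3 and 8507 of 16201 at L4. No gene of these lists was called for Cd at L3 or L4. DESeq2's Wald test called 0 too. The part of these differences in the *spe-44* values was not tested. Of the other sperm genes 13 of 23 had a positive estimate at L4 (median 0.11). The 4 body wall muscle markers were all positive at L4 (median 0.53), and 0 were called by edgeR or DESeq2. Their summed levels were 4600 to 6600 CPM in unexposed and 7860 to 8750 CPM in exposed libraries. For all 4 the exposed libraries lay above the unexposed ones, as they did for 18% of all genes tested. The medians of the hypodermis and intestine markers were 0.54 and 0.22, with 4 of 5 positive and 0 called in each. The *msp* genes had a median of 0.05 at L4, with 23 of 31 positive, and 0 of 31 were called or had an unadjusted p of at most 0.05, also with 0 called by DESeq2.

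The L4 libraries of a group also differed among themselves in a patterned way. Replicate 1 was the highest of its group in both unexposed and exposed L4 worms for 34 of the 51 genes with at least 20 counts in every L4 library (66.7%). Among all 14076 genes with that many counts 25% showed this order. It held for all 9 *nspd* genes, 8 of 12 *ssp* genes and 17 of 24 *spe* and *fer* genes, but for 0 of 4 *ssq* genes. The summed *nspd* level in replicate 1 was 114% of the group mean in unexposed and 115% in exposed worms. In the same libraries the *msp* genes stood at 101% and 106%, and the genes for the membranous organelles at 99.6% and 101%. The oocyte and eggshell list stood at 70.1% and 70.8% there. Replicate 2 lay on the other side, at 90.9% and 86.2% for *nspd* and 133% and 118% for the oocyte list. The sum of the oocyte list is mostly that of *vit-2*, *vit-5* and *vit-6*. The labels give no shared batch for libraries with the same number, and what the libraries of replicate 1 share was not tested. Leaving out replicate 1 of the unexposed or of the exposed L4 group gave 0 calls among the genes for Cd at L4.

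**Figure D5:**
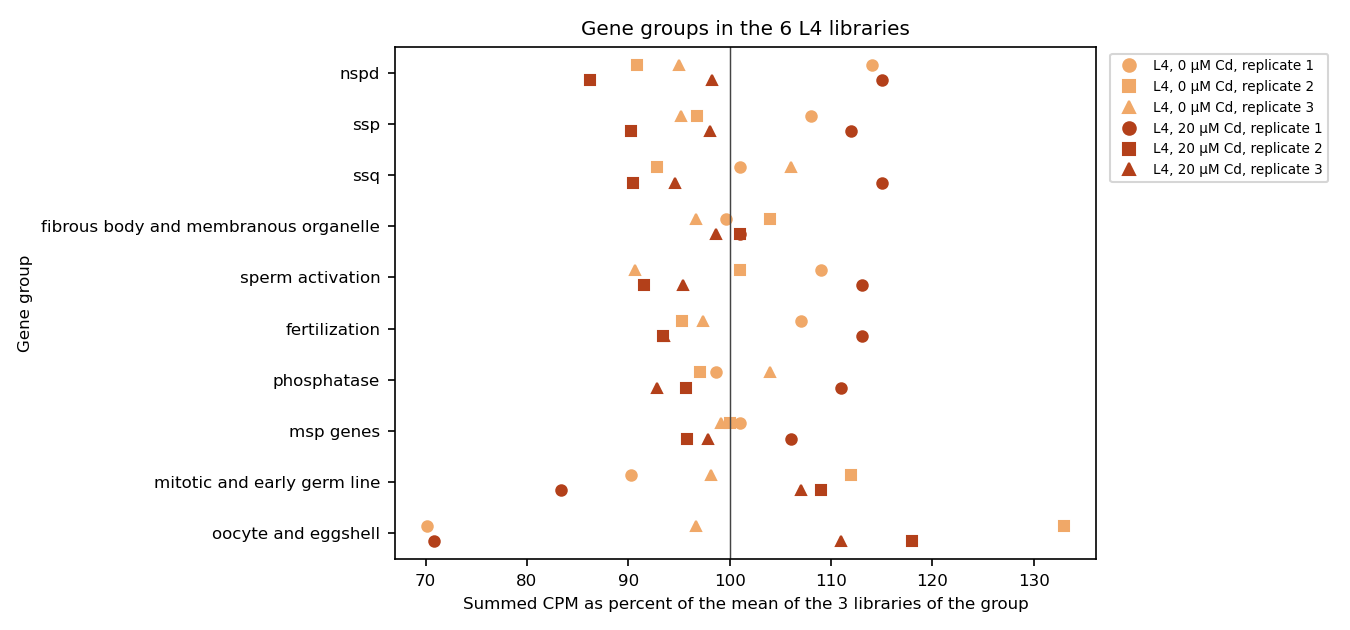
Summed CPM of gene groups in each L4 library as a percent of the mean of the 3 libraries of its group; color gives Cd and marker shape the replicate number. Replicate 1 (circles) lies at 114% and 115% for the *nspd* genes and at 101% and 106% for the *msp* genes. It lies at 70.1% and 70.8% for the oocyte and eggshell list, whose sum is mostly that of *vit-2*, *vit-5* and *vit-6*.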

How the data were processed

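The authors mapped the paired-end reads to WBcel235 with STAR 2.5.2b, and their gene counts come from featureCounts (Subread 1.5.2). The submitters' processing notes also name Trimmomatic 0.36. The deposited counts are raw whole numbers per gene and library, and strand and multi-mapping settings are not given in the sources used here. An entry without a gene name (0.0148% to 2.01% of a library) was left out. The genes, role groups and lists were chosen with earlier results of these data known.

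Tests used edgeR 4.0.16 in R 4.3.3 (quasi-likelihood, TMM, filterByExpr, Benjamini-Hochberg over all genes tested). Genes counted as called passed 0.05 on the adjusted p and differed by at least 1 on the log2 scale, up or down. Each stage or Cd comparison fitted its own 2 groups, and the difference between Cd effects used all 12 libraries. DESeq2 1.42.0 was an alternative, as were its size factors, no low-count filter, no fold minimum, all libraries in one fit, a replicate block and leaving out each library. The fits were checked on simulated data. CPM used TMM library sizes, RPKM the merged exons in the files. Ratio intervals (95%) and the floor of 3 counts over a group cover counting error only.

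Named in the text were the genes of the role groups, except that 2 are counted but not reported by name here, the 8 with the highest mean CPM at L4, the genes not called higher at L4, and the highest and lowest of each family. Others, such as those whose groups did not overlap, were named after their values were seen. For the exposed libraries, 1 label field gives a Cd level of 0, and groups follow the titles. Whether replicates were separate cultures is not given in the sources used here, so p-values measure only the spread between these samples, which may be technical.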

Additional observations from a re-analysis of the deposited data

Results flagged for a closer look

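The estimated effect of Cd on *spe-44* differed between the stages by the adjusted p alone, which 1 of 52 sperm genes and 11.6% of all genes tested passed. It was higher at L3 than at L4 by 0.85 on the log2 scale (adjusted p = 0.0149, edgeR's quasi-likelihood test of the difference), with all 3 exposed libraries above the unexposed ones at L3 and all 3 below them at L4. The difference was under the 2-fold minimum, and the Cd effect was called at neither stage. Genes of the other sperm, germ-line and oocyte lists passed too, also with the higher effect at L3. Among them were *zipt-7.1* (0.93, adjusted p = 0.00383), *pgl-3* (0.53, 0.0115) and *oma-2* (0.87, 0.0168, edgeR). Tissue marker genes passed with the lower effect at L3, namely *myo-3* (-0.73, adjusted p = 0.0225), *ram-5* (-2.95, 0.00409) and *rol-6* (-2.39, 0.00787, edgeR). Positive and negative differences numbered 26 and 26 in the set itself and 13 and 19 among the *msp* genes. They numbered 14 and 9 in the other sperm list, 13 and 1 in the early germ-line list and 15 and 0 in the oocyte list. Over all genes tested they numbered 8665 and 8531. For genes near 0 at L3 the sign says little, as the SE of 262 for *msd-1* in the other sperm list shows.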

How the results depend on the processing

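The 49 calls in each stage comparison stayed at 49 under every alternative with the fold minimum, except that *spe-29* was added as lower without unexposed L3 replicate 3 or unexposed L4 replicate 1 (49 to 50 over the fits that leave out a library). Without the fold minimum the calls were 51 and 50. The unexposed median of 8.20 was 8.60 with DESeq2, 8.32 with its size factors, 7.72 without a filter, 7.64 with all 12 libraries in one fit, and 7.97 to 9.11 when a library was left out. The exposed median of 8.14 was 8.46, 8.23, 7.98 (no filter) and 8.01 to 8.67. DESeq2's size factors moved the median of all genes from -0.07 to 0.07 in unexposed worms. For Cd at L3, 0 to 1 genes were called when a library was left out. For Cd at L4 the count was 0 throughout and the median -0.02 to 0.09. For the difference between the Cd effects, the count was 1 without the fold minimum and 0 to 1 when a library was left out. Its median of 0.00 was 0.07 with DESeq2, 0.10 with the size factors, which moved that of all genes to 0.11, and -0.11 to 0.10 when a library was left out.

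Replicate numbers were not taken as pairs: deviations of same-numbered libraries correlated at 0.373, 0.317 and -0.0948 between L4 groups and at -0.159, 0.0774 and -0.161 between L3 groups, and not every library correlated best with its own number. With the replicate number as a block, 49, 49, 0, 0 and 0 genes were called, as without it. Over all genes the block moved the calls from 545 to 5 for Cd at L3 and from 7 to 387 for Cd at L4. Cd at L4 gave 181 calls with DESeq2, 267 without a filter, 93 with all libraries in one fit and 0 to 12 when a library was left out, and Cd at L3 gave 5 to 1267 when one was left out and 981 without the fold minimum. With the block the adjusted p of *spe-44* for Cd at L4 was 0.0284 (edgeR, log2 difference -0.38) and that of *spe-42* 0.0311 (0.61), both still under the fold minimum.

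Depth limited L3, where 32 genes had at most 10 counts in each library.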

Other observations

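Several sperm genes stand in the files under sequence names and were therefore outside the set; RefSeq gives their current symbols. Of 11 such genes, 10 were called higher in unexposed L4 than L3 worms, against 28.5% of all genes tested, among them *spe-18* (F32A11.3) with 5, 9 and 6 counts at L3 and 3825, 3037 and 3042 at L4, and *spe-58* (F52F12.5) with 1, 0 and 1 and then 929, 771 and 698 counts. *ssp-28* (R74.10) was called lower, from 282, 384 and 409 to 144, 69 and 81 counts (log2 difference -2.18, adjusted p = 3.79e-05, edgeR). For Cd, 0 of the 5 that could be tested at L3 and 0 of the 11 tested at L4 were called by edgeR or DESeq2, with 1 and 2 at an unadjusted p of at most 0.05, against 26% and 26.8% of all genes tested.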
